A study of Mus musculus with 2 samples.

Results

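The 10 desmosome genes described here are Dsg2, Dsg3, Dsg4, Dsc1, Dsc2, Dsc3, Pkp1, Pkp3, Dsp, and Jup. They were chosen by symbol from the 32285 genes of the count tables, and all 10 were found. A desmosome is a cell junction that ties the keratin filaments of neighboring epithelial cells together. The desmogleins (Dsg) and desmocollins (Dsc) are cadherins that span the membrane and bind those of the next cell. Plakoglobin (Jup) and the plakophilins (Pkp) bind the cadherin tails on the inner side, and desmoplakin (Dsp) links them to the keratins. The cadherins and plakophilins are families of paralogs that differ in where they are made in the skin and hair follicle (HF), and human desmoglein 3 is an autoantigen of pemphigus.

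Transcripts were counted in single epithelial cells that carried the tdTOMATO reporter and had been sorted from mouse back skin at postnatal day 1 (P1), with 1 library of genotype PADI4 WT and 1 of genotype PADI4 cKO, both untreated and both in batch 1. The cells came from the dermal fraction left after the epidermis had been peeled off, so that growing HFs were enriched. The sample protocols describe K14-Cre Padi4 fl/fl mice for both libraries, and the genotype field alone sets them apart. The methods name Krt14-Cre mice crossed to a floxed Padi4 line of B6.Cg background and to a tdTomato reporter line. The number and the sex of the animals are not given in the sources used here. K14-Cre acts in basal keratinocytes, and the recombined alleles pass to their descendants, so the deletion and the reporter are both directed to the epithelium. Some fibroblast-like (49 and 27) and melanocyte-like cells (26 and 10) were still found among the sorted cells of the 2 libraries.

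Padi4, the targeted gene, had 98 unique molecular identifiers (UMIs) in PADI4 WT epithelium (0.770 CPM, 95% interval 0.625 to 0.938) and 92 in the other library (0.710 CPM, 0.573 to 0.871). CPM is the number of UMIs per 1000000 UMIs of the same cells. These counts did not set the libraries apart, and the 3′ reads may lie outside the deleted part of the gene, so the second library is called the cKO-labelled library. With 1 library per genotype there is no replicate check and no test, and every interval covers the counting of UMIs or cells alone. The libraries held 143938990 and 143945294 UMIs, with 8069 and 7394 cells after filtering and 14670 and 16208 UMIs in the median cell, and 14 cell barcodes occurred in both. Among epithelial cells, 26.0% of the PADI4 WT library and 98.4% of the cKO-labelled library held Xist UMIs and no Y-linked UMI, and 62.4% and 0% held Y-linked UMIs and no Xist UMI. The sex-linked makeup and the genotype therefore cannot be told apart in most comparisons of the libraries. RNA free in the droplets made up at most 7.89% and 6.73% of the UMIs. Markers of endothelium summed to 1.2 and 1.33 CPM and those of immune cells to 0.997 and 0.976 CPM, with Tyrobp at 0 in both libraries and Ptprc at 0 in the cKO-labelled library.

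Cells were placed in 11 epithelial classes by lists of marker genes: interfollicular epidermis (IFE), sebaceous gland (SG), outer root sheath (ORS), companion layer, lower proximal cup (LPC), germinative layer (GL), inner root sheath (IRS), hair cortex (Cx) and medulla (Med), together with 2 classes given by their markers alone, Krt79/Plet1 and Acta2/Tagln. The Krt79/Plet1 cells carried all 5 markers of the upper HF but had Pparg of the SG list among their leading genes, and were left without a name. The gates took 9193 of 15351 epithelial cells, none of them by a desmosome gene. Class sizes ran from 2449 ORS-like cells to 108 SG-like cells, and 2595 cells lay near the limits of the gates. The IFE-like class held 179 PADI4 WT cells and 27 of the other library and came mostly from different clusters, with 133 of the 179 cells in a cluster that held 7 of the 27. A further cluster, found in the PADI4 WT library alone, held 35 of its 168 companion-like cells. Krt6b of the companion list was at 0 in both libraries, and Krt75, Krt6a, and Krt16 marked that class.

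The plaque genes lie on 4 mouse chromosomes (GRCm38). Pkp1 is on chromosome 1 (135871395 to 135919207, minus strand), Pkp3 on chromosome 7 (141078218 to 141090510, plus strand), Jup on chromosome 11 (100368958 to 100397763, minus strand), and Dsp on chromosome 13 (38151294 to 38198577, plus strand). Sharing of reads among the paralogs is limited by their 3′ ends. Of the 31-base stretches in the last 500 bases of each member, at most 1.72% occur in transcripts of another annotated gene, against 29.1% for Dsg1b, which is not a member. Dsp and Jup, which every desmosome shares whatever its cadherins, are the 2 of the 10 with an entry among the RefSeq promoter sequences used here. Their 250 bases before the transcript start are printed from GRCm38.p6, 5′ to 3′ on the strand of the gene, chr13:38151044-38151293 (plus) and chr11:100397791-100398040 (minus). Capitals mark GGGCGG on either strand, the core of a GC box.
Dsp: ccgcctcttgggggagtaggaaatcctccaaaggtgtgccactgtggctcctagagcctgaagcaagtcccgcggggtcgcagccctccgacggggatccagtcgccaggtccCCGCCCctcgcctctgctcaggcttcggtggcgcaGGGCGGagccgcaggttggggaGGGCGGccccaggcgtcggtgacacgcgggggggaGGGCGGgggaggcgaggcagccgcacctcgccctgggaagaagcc
Jup: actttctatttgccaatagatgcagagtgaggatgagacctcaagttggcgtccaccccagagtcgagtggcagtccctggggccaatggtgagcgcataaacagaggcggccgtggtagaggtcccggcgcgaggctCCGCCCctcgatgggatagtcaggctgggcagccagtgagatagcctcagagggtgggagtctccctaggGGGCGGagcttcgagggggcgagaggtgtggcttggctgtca
Dsp had 4 matches and Jup had 2, the nearest 40 and 37 bases before the start. GGGCGG occurs in 32.7% of the 32851 promoter windows of this length. TGANTCA, the AP-1 motif, and CACCTG, an E-box, were in neither sequence. They occur in 6.75% and 17.2% of the windows (all motifs were searched on both strands, and none of the 3 overlaps another). The guanine and cytosine content was 72.4% for Dsp and 62.0% for Jup, against a median of 52.4%. The Dsp window overlaps an exon of Gm10129 on the opposite strand.

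Over all epithelial cells the members spanned more than 100-fold in level. Dsp was the most abundant, at 435 CPM in the PADI4 WT library and 335 CPM in the cKO-labelled library, followed by Dsc3 at 230 and 192 CPM, Jup at 115 and 104 CPM, and Pkp3 at 102 and 96.0 CPM. Pkp1 was at 77.3 and 60.4 CPM, Dsg3 at 75.2 and 74.4 CPM, and Dsg2 at 61.3 and 56.4 CPM. Dsc1 (7.88 and 6.09 CPM), Dsg4 (7.12 and 5.32 CPM) and Dsc2 (3.48 and 2.88 CPM) were low over all cells. A UMI counts 1 captured molecule whatever the length of the transcript, so that levels of different genes are set side by side without a length term.

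Each member was then compared between the classes, as the CPM of a class over the mean CPM of the other 10 classes. Of the 110 pairs of a member and a class, 10 (9.09%) lay at least 2-fold above the other classes in both libraries, against 3.69% of the 138721 pairs of all 12611 genes with at least 100 UMIs in each library. These 10 pairs were Pkp1 in the IFE-like cells, Dsg3 in the ORS-like and Med-like cells, Dsc2, Dsc3, Dsp, and Jup in the companion-like cells, Dsc1 in the IRS-like cells, and Dsg4 and Dsc2 in the Cx-like cells. A further 33 of the 110 pairs lay at least 2-fold below, against 10.7% of all pairs. Of these 33 pairs, 6 had 0 UMIs in at least 1 library, and 31 remained at least 2-fold below when such counts were set to the limit of 3 UMIs. The LPC-like cells, progenitors at the base of the follicle, held 7 of the 33, with Dsg3, Dsg4, Dsc1, Dsc2, Pkp1, Dsp, and Jup all lower there. Of all 12611 genes, 966 (7.66%) lay at least 2-fold below in that class. In the plot of levels by class, 8 of the 10 genes were highest in the same class in both libraries. With gates set on single cells there were 5 pairs at least 2-fold above. Under at least 1 alternative, each companion-like pair, Dsg3 in the ORS-like and Med-like cells and Pkp1 in the IFE-like cells fell below 2-fold in a library. Dsc1 in the IRS-like cells and Dsg4 and Dsc2 in the Cx-like cells stayed above 2-fold under all of them. With every cell thinned to 2000 UMIs there were 13 pairs below and 5 genes highest in the same class. The minimum of 100 UMIs in each library was kept after thinning, so that genes with few UMIs could drop out of the pairs. Dsg4 alone held 8 of the 33 pairs below, and the number of pairs still tested is not given here.

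**Figure D1:**
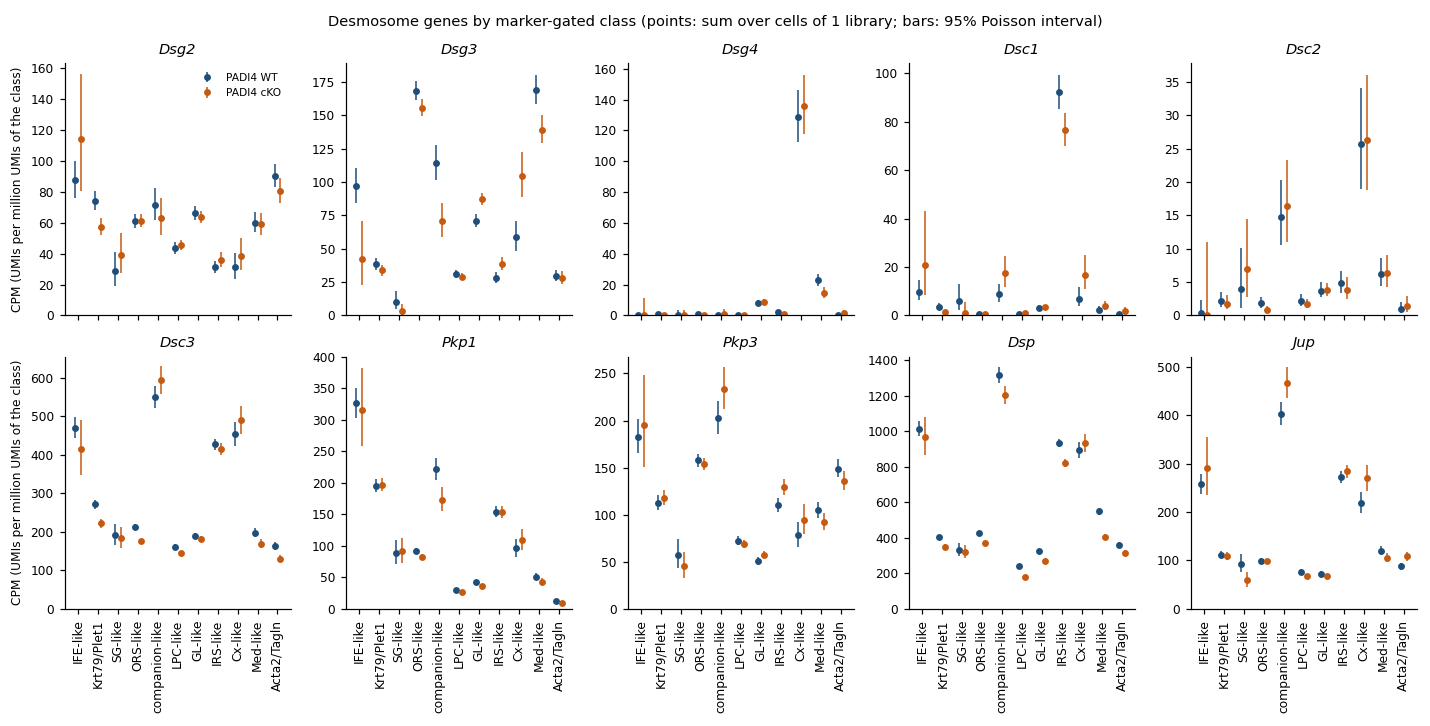
CPM of each desmosome gene (vertical axis, UMIs per 1000000 UMIs of the class) in 11 marker-gated classes, as the sum over the cells of 1 library with its 95% Poisson interval, PADI4 WT in blue and the cKO-labelled library in orange. Dsg4 stands out in the Cx-like cells (129 and 136 CPM), Dsc1 in the IRS-like cells (92.1 and 76.4 CPM) and Dsg3 in the ORS-like and Med-like cells, while Dsc3, Dsp, and Jup are highest in the companion-like cells.

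The 6 cadherin genes are neighbors on chromosome 18 (GRCm38), with Dsc3, Dsc2, and Dsc1 on the minus strand between positions 19960930 and 20114871 and Dsg4, Dsg3, and Dsg2 on the plus strand between positions 20436175 and 20604521. Among the desmogleins, Dsg4, the desmoglein of the hair shaft, was found in few classes. It was at 129 CPM (113 to 146) in the Cx-like cells of the PADI4 WT library and at 136 CPM (118 to 156) in those of the cKO-labelled library, 5.14 and 5.49 above the other classes on the log2 scale. The Med-like cells followed at 22.9 CPM (19.2 to 27.2) and 14.6 CPM (11.4 to 18.4), and the GL-like cells, from which the hair lineages arise, at 7.99 and 8.90 CPM. The intervals of these 3 classes did not overlap in either library, so that the order Cx-like, Med-like, GL-like held in both. In the other 8 classes the level was at most 2.28 CPM wherever a UMI was counted. No UMI of Dsg4 was detected in the IFE-like and SG-like cells. At the limit of 3 UMIs this allows up to 1.29 and 9.0 CPM in the IFE-like cells and up to 2.98 and 3.0 CPM in the SG-like cells of the 2 libraries. The ORS-like cells, the largest class, held 9 UMIs in 1166 cells and 0 UMIs in 1283 cells. Against the limit of 3 UMIs in the latter, the Cx-like level of the cKO-labelled library was at least 702-fold higher. Of the Cx-like cells, 58.3% and 68.2% held a Dsg4 UMI, against 2.04% and 0% of the fibroblast-like cells, which should lack it, with 14877 and 16924 UMIs in the median Cx-like cell and 13757 and 16894 in the median fibroblast-like cell.

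Dsg3, a desmoglein of basal keratinocytes and the outer root sheath, was highest in the ORS-like and Med-like cells. The ORS-like cells had 168 CPM (161 to 176) in the PADI4 WT library and 156 CPM (150 to 162) in the cKO-labelled library, and the Med-like cells had 169 CPM (159 to 180) and 139 CPM (129 to 150). The intervals of these classes overlapped, and both lay above every other class in both libraries. What followed differed between the libraries, with the companion-like cells next at 114 CPM in the PADI4 WT library and the Cx-like cells next at 105 CPM in the other. The LPC-like cells (30.8 and 29.1 CPM) and the Acta2/Tagln cells (29.7 and 28.2 CPM) were low in both, and the SG-like cells had 10 and 3 UMIs in all.

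Dsg2, which is found in simple as well as layered epithelia, was spread more evenly. Its classes ran from 28.8 to 90.1 CPM in the PADI4 WT library and from 36.1 to 114 CPM in the cKO-labelled library, a span of 3.13-fold and 3.16-fold, and no class was 2-fold above or below the others in both libraries. It was highest in the Acta2/Tagln and IFE-like cells, with 90.1 and 80.5 CPM in the former and 87.4 and 114 CPM in the latter, and the intervals of these classes overlapped. It was lowest in the SG-like (28.8 and 39.1 CPM), IRS-like (31.1 and 36.1 CPM) and Cx-like cells (31.1 and 38.5 CPM), which overlapped one another in both libraries.

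The desmogleins therefore made up different shares of their summed UMIs from class to class. Counting Dsg2, Dsg3, and Dsg4, Dsg2 held the largest share in 5 classes, Dsg3 in 5 and Dsg4 in 1, the Cx-like cells, in each library. Dsg4 made up 58.8% (53.9 to 63.6, exact binomial interval) of the Cx-like desmoglein UMIs of the PADI4 WT library and 48.7% (43.8 to 53.6) of the other. In the cKO-labelled library it was 26.3% with gates set on single cells and 30.9% with gates without the most abundant marker of each list. With these other gates Dsg4 was therefore not the leading desmoglein of the Cx-like cells of that library. Dsg3 made up 73.2% and 71.7% in the ORS-like and 67.1% and 65.5% in the Med-like cells. Dsg2 made up 75.1% and 72.8% in the Acta2/Tagln cells and 65.5% and 62.9% in the Krt79/Plet1 cells. The leading gene differed between the libraries in 2 classes. In the IRS-like cells Dsg2 and Dsg3 were close to equal in both (50.5% against 45.8% and 47.6% against 50.8%). In the IFE-like cells Dsg2 made up 47.4% (42.6 to 52.3) and 73.1% (59.0 to 84.4), where most cells of the libraries came from different clusters and the second value rests on 27 cells.

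Dsg1a and Dsg1b, desmoglein 1 genes of differentiating epidermis that are not among the 10, change this picture in the IRS-like, companion-like and IFE-like cells. With both added, Dsg1a made up 72.8% (71.1 to 74.5) and 70.3% (68.4 to 72.1) of the desmoglein UMIs of the IRS-like cells and 51.6% and 57.3% of those of the companion-like cells. In the IFE-like cells the libraries differed, with Dsg1a leading at 38.0% in the PADI4 WT library and Dsg2 at 44.7% in the other. Dsg4 still led in the Cx-like cells, at 47.2% and 39.0%, and Dsg3 in the ORS-like cells, at 71.1% and 69.7%. Of the last stretches of Dsg1b, 29.1% also occur in other genes, against 0% for Dsg1a, so that the Dsg1b level is uncertain.

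Among the desmocollins, Dsc3, the desmocollin of basal layers, led in all 11 classes of both libraries, with 81.5% to 99.2% of the desmocollin UMIs. It was highest in the companion-like cells (550 CPM, 522 to 579, and 593 CPM, 558 to 629). The IFE-like (470 and 414 CPM), Cx-like (453 and 489 CPM) and IRS-like cells (427 and 414 CPM) followed, and neighbors among these overlapped. The LPC-like (160 and 145 CPM) and Acta2/Tagln cells (163 and 130 CPM) were lowest. The companion-like cells were the one class at least 2-fold above the others in both libraries, by 1.01 and 1.23 on the log2 scale. Under the alternatives these values went down to 0.68 and 0.90, below 2-fold.

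Dsc1, a desmocollin of differentiated layers, was highest in the IRS-like cells, which held 687 of its 1003 UMIs in the PADI4 WT library and 496 of 789 in the other. They had 92.1 CPM (85.3 to 99.3) in the PADI4 WT library and 76.4 CPM (69.8 to 83.5) in the cKO-labelled library, 4.40 and 3.43 above the other classes on the log2 scale. The IFE-like cells came second in both libraries, at 9.86 CPM (6.25 to 14.8) and 21.0 CPM (8.44 to 43.3), and overlapped the companion-like cells at 8.74 and 17.4 CPM. The ORS-like cells were lowest, with 6 UMIs (0.464 CPM) and 10 UMIs (0.645 CPM). Even where it was highest, Dsc1 made up 17.6% (16.4 to 18.8) and 15.5% (14.2 to 16.8) of the desmocollin UMIs, and at most 4.83% in any other class. Of the IRS-like cells, 48.9% and 50.4% held a Dsc1 UMI, against 0% of the fibroblast-like cells, where 0 of 49 and 0 of 27 cells allow up to 6.12% and 11.1%.

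Dsc2, a broadly distributed desmocollin, was the least abundant of the 10. It was highest in the Cx-like cells, with 25.7 CPM (19.0 to 34.1) from 48 UMIs and 26.3 CPM (18.7 to 36) from 39 UMIs, and next in the companion-like cells, with 14.8 CPM (10.5 to 20.3) and 16.3 CPM (11 to 23.3). These classes overlapped one another, and both lay more than 2-fold above the rest in both libraries. The IFE-like cells held 1 and 0 UMIs. In the fibroblast-like cells left out of the classes Dsc2 was at 17.8 CPM (9.71 to 29.8) and 8.37 CPM (2.28 to 21.4), overlapping the companion-like cells. Its share of the desmocollins reached 5.29% and 4.95% in the Cx-like cells.

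**Figure D2:**
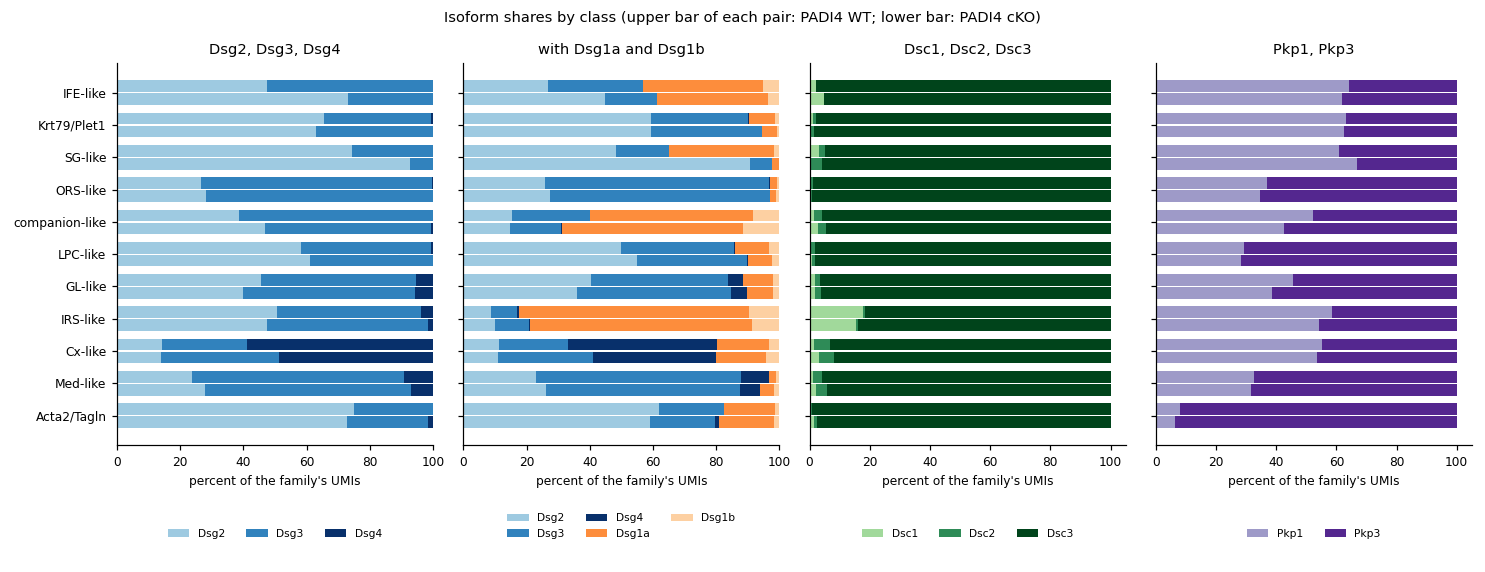
Share of each paralog in the summed UMIs of its family (horizontal axis, percent) for the desmogleins Dsg2, Dsg3, and Dsg4, the same with Dsg1a and Dsg1b, the desmocollins and the plakophilins Pkp1 and Pkp3, with 1 bar for each class and library (upper bar PADI4 WT, lower bar the cKO-labelled library). Dsg4 leads in the Cx-like cells alone, Dsc3 leads in all classes, and the Pkp1 share runs from 64.0% in the IFE-like cells to 7.93% in the Acta2/Tagln cells of the PADI4 WT library.

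The plakophilins divided the classes. Pkp1, a plakophilin of suprabasal layers, was highest in the IFE-like cells, at 326 CPM (303 to 350) and 315 CPM (258 to 381), 1.73 and 1.78 above the other classes on the log2 scale. The companion-like (221 and 173 CPM) and Krt79/Plet1 cells (195 and 197 CPM) overlapped in second place. The LPC-like cells had 29.9 and 27.1 CPM and the Acta2/Tagln cells 12.8 CPM (10.2 to 15.9) and 9.34 CPM (6.86 to 12.4), so that the classes spanned 25.4-fold and 33.7-fold. Pkp3, which is found in all layers, spanned 4.01-fold and 5.18-fold, from 203 and 234 CPM in the companion-like cells to 50.6 and 57.3 CPM in the GL-like and 57.6 and 45.1 CPM in the SG-like cells. Pkp1 made up 64.0% (61.2 to 66.8) and 61.8% (54.0 to 69.1) of the UMIs of the pair in the IFE-like cells, and 63.4% and 62.5% in the Krt79/Plet1 cells. It made up 36.8% and 34.8% in the ORS-like, 32.7% and 31.7% in the Med-like and 29.3% and 28.3% in the LPC-like cells, where Pkp3 led. In the Acta2/Tagln cells Pkp1 was down to 7.93% (6.36 to 9.75) and 6.42% (4.76 to 8.45), with Pkp3 at 149 and 136 CPM. The leading plakophilin was the same in both libraries in 10 of the 11 classes. The exception was the companion-like cells, with a Pkp1 share of 52.2% (49.2 to 55.1) and 42.6% (39.0 to 46.2).

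Dsp and Jup, the shared parts of the plaque, had nearly the same order of classes. Dsp was highest in the companion-like cells at 1318 CPM in the PADI4 WT library and 1204 CPM in the cKO-labelled library, followed by the IFE-like (1016 and 969 CPM), IRS-like (934 and 822 CPM) and Cx-like cells (894 and 933 CPM). It was lowest in the LPC-like cells at 244 and 179 CPM. Jup was highest in the companion-like cells at 403 and 467 CPM, with the IRS-like (273 and 284 CPM), IFE-like (258 and 291 CPM) and Cx-like cells (219 and 270 CPM) next. Its lowest levels were 72.9 and 68.0 CPM in the GL-like and 76.7 and 68.0 CPM in the LPC-like cells, together with 59.1 CPM in the SG-like cells of the cKO-labelled library. The same 4 classes, companion-like, IFE-like, IRS-like, and Cx-like, led for Dsp, Jup, and Dsc3 in both libraries. Over the 11 classes, the correlation of log2(CPM + 1), averaged over the libraries, was 0.98 between Dsp and Jup and 0.95 between Dsc3 and each of them. It was 0.66 between Dsg4 and Dsc2 and −0.57 between Dsg2 and Dsc2. These values describe 11 points that share their libraries and the totals of their classes.

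Outside the 10, the gene most like each member over the classes was searched among 10834 genes that reached 10 CPM in at least 1 class. The best matches of Dsg4 were Rnaset2a (r = 0.98), Krt87 (0.98) and Krt35 (0.98), the last 2 of them hair keratins, and the best match of Dsc2 was Pkp2 (0.92), another plakophilin. For Dsc1 they were Taf13, Mark2, and Cyp4f39 (0.94 each), and for Dsg3 Clasp1 (0.91), Foxp1 (0.90) and Plekha6 (0.89). Fth1 (0.89) and Zdhhc18 (0.88) were among the matches of Dsg2. Dsc3 was most like Lipm (0.96), Marveld3 (0.95), a tight junction gene, and Mfsd6 (0.94). Pkp1 was most like Vamp2 (0.96), Copg2 (0.93) and Herc4 (0.93), and Pkp3 like Acap2 (0.96), Os9 (0.95) and Pqlc1 (0.93). Tmem134 (0.96) and Psd4 (0.93 and 0.94) were among the matches of both Dsp and Jup, with Plxdc2 (0.97) for Dsp and Ten1 (0.93) for Jup.

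Of the other desmosome and cell envelope genes, Dsg1a, Dsg1b, Pkp2, Pkp4, Perp, Ppl, and Evpl had enough UMIs, and Dsg1c and Cdsn did not. Of their 77 pairs with a class, 13 (16.9%) lay at least 2-fold above the other classes and 35 (45.5%) below, against 3.69% and 10.7% of all pairs. Dsg1a was at 239 and 248 CPM in the companion-like and 255 and 253 CPM in the IRS-like cells. Perp, a membrane protein of the desmosome, was at 2245 and 2769 CPM in the companion-like and at 1691 and 1688 CPM in the IRS-like cells. The plakins Ppl and Evpl were at 152 and 132 CPM and at 88.2 and 74.3 CPM in the IRS-like cells. Pkp2 was at 44.5 and 35.4 CPM in the companion-like and at 19.3 and 23.6 CPM in the Cx-like cells, the classes in which Dsc2 was highest. Pkp4 ran the other way, with 347 and 347 CPM in the GL-like cells, where Pkp1 was at 42.4 and 35.9 CPM. Of the 5 adherens junction genes, 4 of 55 pairs (7.27%) lay at least 2-fold above and 7 (12.7%) below, the latter near the share of all pairs. These 4 were Cdh1, the epithelial cadherin, in the IFE-like (310 and 318 CPM) and companion-like cells (301 and 302 CPM), and Cdh3, the placental cadherin, in the GL-like (589 and 564 CPM) and Med-like cells (750 and 710 CPM).

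The members were also set beside the markers of each differentiation program without the gates. All epithelial cells were binned by the summed level of 15 hair keratins, of 6 IRS keratins, or of Krt1, Krt10, and Krtdap. The mix of classes in each bin is not given here, so the bins are not read as steps of a single lineage. Bin 0 held the cells with no UMI of the list and bins 1 to 5 the cells with at least 1, divided at percentiles 50, 75, 90, and 97, and CPM was computed without the list. Along the hair keratins, Dsg3 was higher in the middle bins and Dsg4 in the last ones. In the PADI4 WT library Dsg3 went from 68.4 CPM in bin 0 to 137 in bin 3 and 64.1 in bin 5, and in the other from 66.2 to 141 and 82.3. Dsg4 was at 0.235 and 0.0972 CPM in bin 0, 19.1 and 27.6 in bin 3, 173 and 143 in bin 4, and 275 and 232 in bin 5. Dsg2 was between 47.8 and 65.0 CPM up to bin 4 and at 19.2 and 16 CPM in bin 5. Dsc2 was at 2.10 and 1.44 CPM in bin 0 and at 41.7 and 35.4 in bin 5, and Dsp went from 400 and 304 to 1209 and 996. Bin 5 rests on 60 and 54 cells.

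Along the IRS keratins Dsg2 and Dsg3 were lower and Dsg1a and Dsc1 higher in the last bins. Dsg3 was at 76.8 and 69.5 CPM in bin 0 and at 9.05 and 24.2 CPM in bin 5, and Dsg2 was at 66.2 and 57.8 CPM and at 25.9 and 32.1 CPM. Dsc1 was at 1.38 and 0.691 CPM in bin 0, 41.2 and 33.5 in bin 4, and 190 and 160 in bin 5. Dsg1a was at 17.0 and 7.93 CPM in bin 0 and at 388 and 375 in bin 5. Jup went from 106 and 89.8 to 309 and 319 CPM. Dsc3 was highest in bin 4 (440 and 379 CPM) and at 335 CPM in bin 5 of both libraries, which held 156 and 118 cells.

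Along Krt1, Krt10, and Krtdap, which mark the suprabasal epidermis, the plakophilins separated. Pkp1 was at 59.3 and 46.1 CPM in bin 0, 133 in bin 3 of both libraries, and 334 and 280 CPM in bin 5, while Pkp3 was at 102 and 94.8 CPM in bin 0 and at 183 and 171 CPM in bin 5. Dsg2 was at 61.1 and 58.2 CPM in bin 0 and at 71.4 and 73.8 CPM in bin 5. Dsg3 went to 101 CPM in the PADI4 WT library and to 60.1 CPM in the cKO-labelled library in bin 5, which held 193 and 69 cells.

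**Figure D3:**
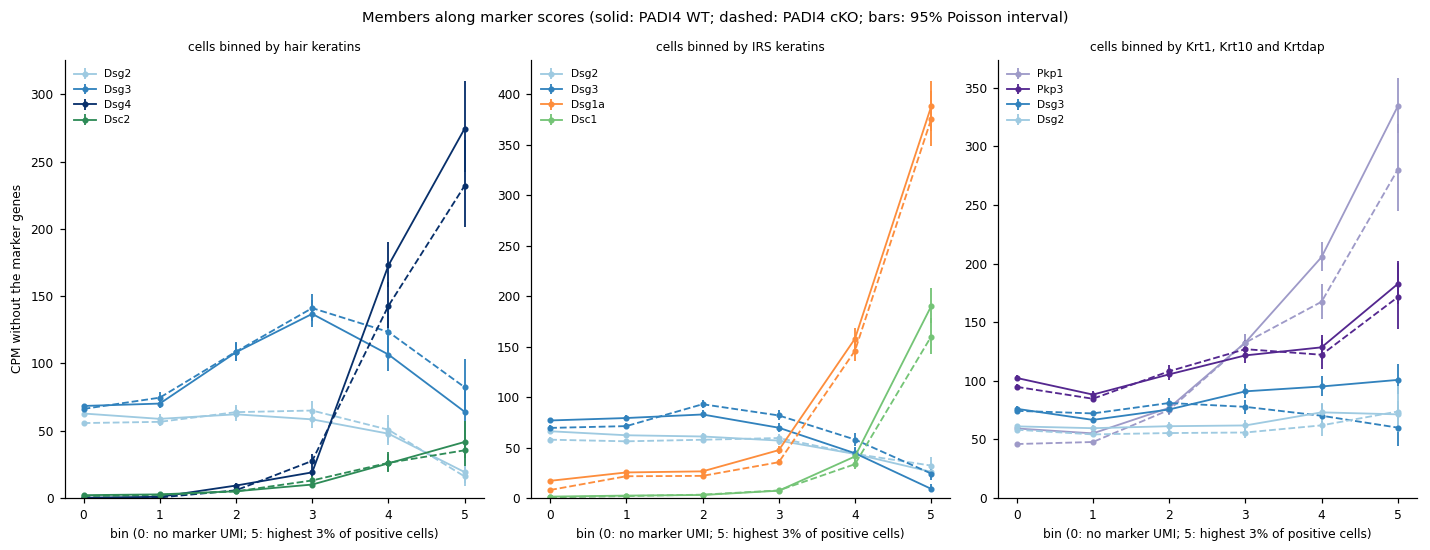
CPM of selected members and Dsg1a (vertical axis, list genes left out of the total) in epithelial cells binned by hair keratins, by IRS keratins and by Krt1, Krt10, and Krtdap (horizontal axis, bin 0 without a marker UMI to bin 5 with the highest 3% of positive cells), with solid lines for PADI4 WT, dashed lines for the cKO-labelled library and bars for 95% Poisson intervals. Dsg3 peaks in bin 3 of the hair keratins and Dsg4 is at 275 and 232 CPM in bin 5, and Pkp1 passes Pkp3 in the upper bins of Krt1, Krt10, and Krtdap.

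Paralogs of a family could be found in the same cells. Of the Med-like cells with a Dsg4 UMI, 68 of 72 (94.4%) in the PADI4 WT library and 33 of 37 (89.2%) in the other also held Dsg3, against 84.7% and 80.4% of all Med-like cells. After thinning to 2000 UMIs per cell, which evens out depth, 6 of 13 (46.2%) and 1 of 6 (16.7%) held both, against 28.9% and 23.5%, and the numbers were too small to order. Of the Cx-like cells with Dsg4, 36 of 67 (53.7%) and 35 of 58 (60.3%) held Dsg3, close to the 47.8% and 62.4% of the whole class. Of the IRS-like cells with Dsc1, 207 of 223 (92.8%) and 171 of 180 (95%) held Dsg1a, against 86.8% and 90.2% of the class, and after thinning 52.2% and 56.0%, against 37.1% and 37.5%. All 35 and 26 Cx-like cells with Dsc2 also held Dsc3, as did 96.5% and 98.8% of the whole class.

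The libraries were then compared within 10 classes, the IFE-like cells being too few, for genes with at least 100 UMIs in a class over both. Of 73 such pairs of a member and a class, 1 (1.37%) had a log2 ratio of the cKO-labelled library over PADI4 WT above 0.5 and 3 (4.11%) a ratio below −0.5, against 2.40% and 3.23% of 85256 pairs of all genes. These shares were near those of all genes and are no result about the members. Dsg3 was higher in the Cx-like cells of the cKO-labelled library, 105 CPM (88.9 to 123) against 58.9 CPM (48.4 to 71.0), a log2 ratio of 0.83 (0.47 to 1.2). It was lower in the companion-like cells, 70.8 CPM (59.1 to 84.0) against 114 CPM (101 to 128), a ratio of −0.68 (−1.0 to −0.39). The intervals of the libraries did not overlap in either class. Dsg4 was lower in the Med-like cells, 14.6 against 22.9 CPM, with a ratio of −0.65 (−1.09 to −0.23), and Jup in the SG-like cells, 59.1 against 93.3 CPM, with a ratio of −0.66 (−1.15 to −0.17) from 59 and 94 UMIs.

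The makeup by clusters differed between the libraries in the companion-like cells (52.4% and 75.2% in the leading cluster) and the Med-like cells (64.6% and 48.1%). It was alike in the Cx-like cells (79.1% and 78.8%), and all 54 SG-like cells of each library were in 1 cluster. That cluster of 503 cells scored 1.71 for the upper HF list and 1.64 for the SG list and was given no class name. Ratios were also taken within clusters and combined by Mantel-Haenszel weights. Dsg3 in the companion-like cells was then at −0.20, Dsg4 in the Med-like cells at −0.23 and Dsg3 in the Cx-like cells at 0.74. For Jup in the SG-like cells this step could change nothing, since the whole class lay in 1 cluster. With clusters in place of the gates, Dsg3 in the Cx-like cells was at 0.26. With gates set on single cells Dsg3 in the companion-like cells was at −0.13 and Jup in the SG-like cells at −0.28, and with stricter gates Dsg4 in the Med-like cells was at −0.13. The part of class makeup beyond these values was not tested.

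**Figure D4:**
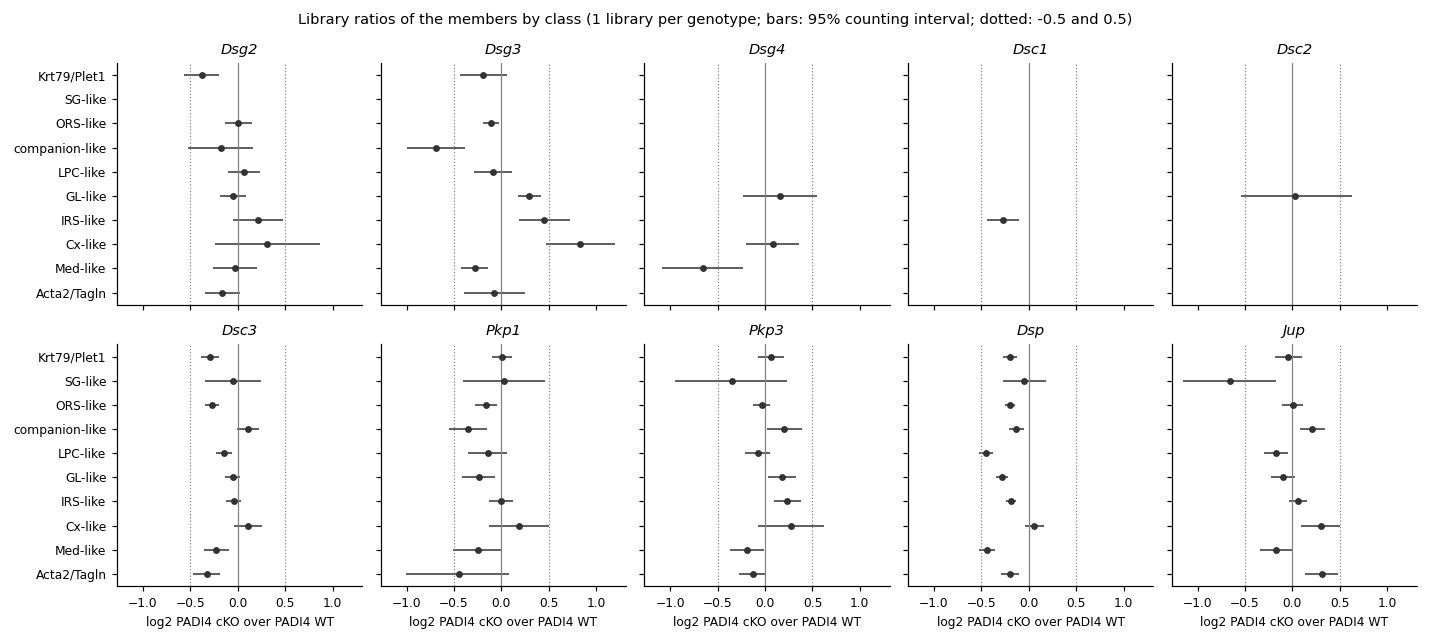
Log2 ratio of the cKO-labelled library over PADI4 WT (horizontal axis) for each member and each class with at least 100 UMIs, with 95% counting intervals and dotted lines at −0.5 and 0.5. Dsg3 lies at 0.83 in the Cx-like and at −0.68 in the companion-like cells, and Dsp lies below 0 in 9 of 10 classes.

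Smaller differences lay more often on the lower side. The interval of the ratio lay below 0 in 26 of the 73 pairs (35.6%) and above 0 in 9 (12.3%), against 11.9% and 11.6% of all pairs. The median ratio was −0.08, against −0.00137 over all genes. The tilt was not particular to the members. Intervals lay below and above 0 in 22.9% and 10.4% of the pairs of related genes, and in 28.6% and 8.16% of those of adherens junction genes. How far the number of UMIs of a gene sets these shares was not tested. Among cells with Xist and no Y-linked UMI in both libraries, where fewer cells widened the intervals, 5 of 50 intervals lay below 0 and 5 above, and the median ratio was −0.06. The share of such intervals over all genes was not computed for these cells. Over all cells, Dsp was the member with the most classes whose interval lay below 0. It was lower in the cKO-labelled library in 9 of 10 classes, with the interval below 0 in 8, and its ratio ran from −0.45 (−0.52 to −0.37) in the LPC-like cells to 0.06 (−0.04 to 0.17) in the Cx-like cells. Dsc3 was lower in 8 of 10 classes, with the interval below 0 in 5, and Pkp1 in 7 of 10, with the interval below 0 in 3. Among Xist cells Dsc3 was lower in 6 of 7 classes, with the interval below 0 in 1, and Pkp1 in 2 of 6, with the interval below 0 in 0. Pkp3 and Jup were each lower in 5 of 10. By class, all 8 members compared were lower in the Med-like cells and all 8 higher in the Cx-like cells of the cKO-labelled library, with median ratios of −0.24 and 0.23, against −0.02 and 0.00335 over all genes of those classes. The interval lay above 0 in the Cx-like cells for Dsg3 and Jup alone, and below 0 in the Med-like cells for all but Dsg2 and Pkp1. The shares of all genes lower or higher in these classes were not computed. The adherens junction genes Cdh1, Cdh3, Ctnna1, and Ctnnb1 had the same directions, as did the related gene Perp (−0.15 and 0.04). The related gene Pkp4 had the opposite (0.28 and −0.05), and Ppl was higher in both classes (0.29 and 0.33). Of the 48 pairs of related genes compared, 4 (8.33%) lay below −0.5 and 0 above 0.5, against the 3.23% and 2.40% of all genes. They were Dsg1a in the Krt79/Plet1 (−1.17) and LPC-like cells (−0.57), Pkp4 in the companion-like cells (−1.07) and Evpl in the Krt79/Plet1 cells (−0.89).

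Dsp was also compared between cells split by their sex-linked UMIs. Within the PADI4 WT library, Dsp was higher in the cells with Y-linked UMIs than in those with Xist UMIs in 7 of 7 classes with enough cells, with the interval above 0 in 5. Pkp3 and Jup were lower in the Y-linked cells in 5 of 7 classes each, with the interval below 0 in 2 and 1. Over all members, 34 of 50 pairs were higher in the Y-linked cells and 16 lower. The shares of such directions and intervals over all genes were not computed, so these counts cannot be set against all genes. Past 0.5 in size, 3 of the 50 pairs lay above and 1 below. Over all genes, the share above ran from 2.46% (GL-like) to 5.13% (Krt79/Plet1) by class. The share below ran from 1.75% (Acta2/Tagln) to 4.24% (Krt79/Plet1). In the LPC-like cells Dsp was at 265 CPM in the Y-linked cells and 182 CPM in the Xist cells. The log2 ratio was 0.54 (0.40 to 0.69). The Xist cells of the cKO-labelled library had 179 CPM, a ratio of −0.02 (−0.16 to 0.12) to the Xist cells of the PADI4 WT library. Among Xist cells alone, Dsp was lower in the cKO-labelled library in 5 of 7 classes, with a median ratio of −0.06 and the interval below 0 in 2, the Med-like cells (403 against 541 CPM, −0.42) and the GL-like cells (269 against 320 CPM, −0.25). Of the other members, Dsg3 lay above 0.5 among IRS-like Xist cells (38.2 CPM in the cKO-labelled library against 18.4 CPM, 1.03). Its PADI4 WT level rests on 28 UMIs. Dsg2 lay above 0.5 among LPC-like Xist cells (45.7 against 31.2 CPM, 0.54), and none lay below −0.5. These were 2 of the 50 pairs of all members. Over all genes, the share above 0.5 ran from 2.96% (GL-like) to 5.96% (Krt79/Plet1) by class. The 2 pairs were near those shares and are no result about the members. The companion-like and Cx-like classes held too few Xist cells of the PADI4 WT library for this comparison. The SG-like class also held too few cells, and Dsg4 in the Med-like cells too few UMIs. The pairs below −0.5 over all cells were therefore not compared here. Sex and other differences between the animals cannot be told apart here.

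**Figure D5:**
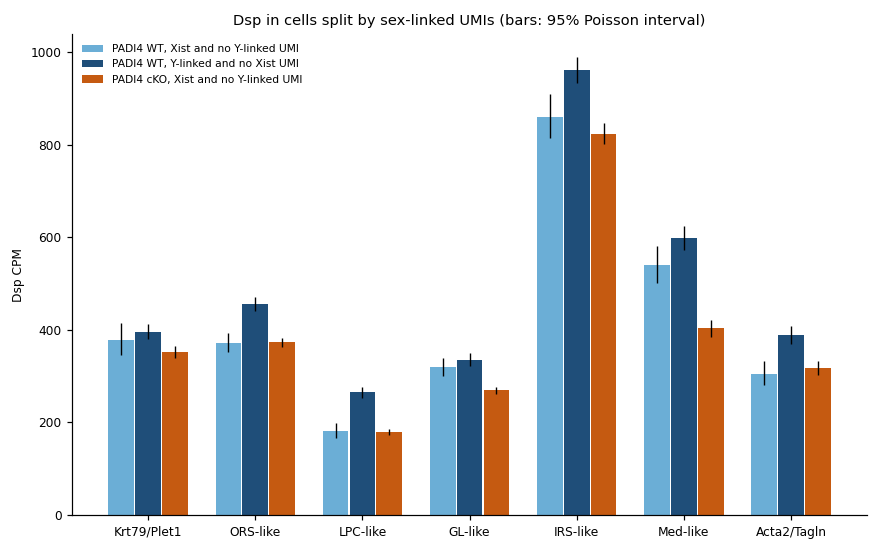
Dsp level (vertical axis, CPM with 95% Poisson intervals) in 7 classes, for PADI4 WT cells with Xist and no Y-linked UMI (light blue), PADI4 WT cells with Y-linked and no Xist UMI (dark blue) and cells of the cKO-labelled library with Xist and no Y-linked UMI (orange). In the LPC-like cells the Xist cells of both libraries are at 182 and 179 CPM and the Y-linked cells at 265 CPM, whereas in the Med-like cells the cKO-labelled library lies below both.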

How the data were processed

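Single-cell RNA sequencing was carried out on tdTomato-positive cells of P1 back skin, with 1 library for each genotype (PADI4 WT and PADI4 cKO). The authors deposited raw UMI counts per gene and droplet barcode for 32285 genes. They are not normalized and include empty droplets. Cell Ranger 7.1.0 had been run on reads of the Chromium v3.1 chemistry. The submitters' processing notes name mm10. Whether intronic reads were counted is not given in the sources used here. Background removal and Harmony integration were not run.

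Cells were required to hold between 2000 and 60000 UMIs from between 1000 and 8000 genes. Mitochondrial UMIs were limited to 20%, hemoglobin UMIs to 1%, and the ribosomal share to percentiles 5 to 99. Marker scores were averaged over 30 neighbors in 50 principal components of 1000 variable genes, without the desmosome and adherens genes. A cell entered a class at a score of at least 0.75 with a lead of 0.25, limits set after values had been seen. Doublets were called with Scrublet at 0.223, the automatic threshold of the cKO-labelled library, since that of the PADI4 WT library called 1 cell. It called 296 (3.67%) and 318 cells (4.30%), and these were left out in an alternative alone. Fibroblast-like (49 and 27) and melanocyte-like cells (26 and 10) were left out of the classes.

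Summed UMIs were given as CPM with exact Poisson 95% intervals, shares with exact binomial (Clopper-Pearson) intervals and log2 ratios with 0.5 UMI added and exact conditional binomial intervals. The limit for a count of 0 was 3 counts. With 143938990 and 143945294 UMIs in the libraries, precision was set by the gene and class, as the intervals show. The ratio methods were tested on simulated data. No p-values were computed. Named genes were the 10 members in every class, the listed related and adherens junction genes past the fold, and for each member the 3 genes with the highest correlation over the classes, of which 1 is not reported here. The members, lists and rules were chosen with earlier results of these data known. The alternatives were other lower limits of UMIs per cell, doublets left out, other gates, Leiden clusters at resolution 1.0, thinning to 2000 UMIs, subtraction of empty-droplet UMIs, other totals, centered ratios, minima of 50 and 500 UMIs and, chosen after seeing the data, gates on single cells, a desmoglein family with Dsg1a and Dsg1b, classes without clusters of 1 library, and ratios within clusters. Python 3.11.15, numpy 2.4.6, scipy 1.17.1, pandas 2.3.3, scanpy 1.11.5, leidenalg 0.10.2, and matplotlib 3.10.9 were used.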

Additional observations from a re-analysis of the deposited data

Results flagged for a closer look

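The Dsg3 ratio of the cKO-labelled library over PADI4 WT was −0.68 on the log2 scale in the companion-like cells and 0.83 in the Cx-like cells. The opposite direction in these classes drew attention, with both intervals clear of 0. The difference between the classes was not tested, since each genotype has 1 library. Within clusters the companion-like ratio was −0.20 and the Cx-like ratio 0.74.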

How the results depend on the processing

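Of the counts, shares and levels recomputed under the alternatives, 154 moved by less than the spread set for them and 41 by more, and for single genes 262 and 89, with 0 reversed. No paired analysis was possible because the labels give 1 library per genotype. Thinning to 2000 UMIs left 5 members (from 8) highest in the same class of both libraries and 13 pairs (from 33) at least 2-fold below. It gave 54.3% Pkp1 in the IFE-like cells of the PADI4 WT library, 54.5% Dsg4 in the Cx-like cells of the cKO-labelled library, 1 pair below −0.5 and the co-detection of 46.2% and 16.7%. Gates on single cells left 5 pairs (from 10) at least 2-fold above, 0 pairs above 0.5, 26.3% Dsg4 in the Cx-like and 48.5% Pkp1 in the IFE-like cells of the cKO-labelled library, and 19.6% and 18.3% Dsc1 in the IRS-like cells. Gates without the most abundant marker of each list gave 39.5% and 30.9% Dsg4 in the Cx-like cells, 0 pairs above 0.5, 7 below −0.5 and 76.7% of pairs lower in the cKO-labelled library, from 64.4%. Stricter gates gave 74.9% and 73.6% Dsg3 in the ORS-like and 19.6% and 18.3% Dsc1 in the IRS-like cells, and clusters in place of gates gave 66.2% and 68.2%, 12.5% and 11.6%, and 0 pairs above 0.5. The desmoglein family with Dsg1a and Dsg1b gave 47.2% and 39.0% Dsg4 in the Cx-like and 71.1% and 69.7% Dsg3 in the ORS-like cells. Without clusters of 1 library, Pkp1 made up 60.8% in the IFE-like cells of the PADI4 WT library. Pairs above 0.5 numbered 2 with empty-droplet UMIs subtracted, 2 with a minimum of 50 UMIs, 2 in Xist cells and 2 within clusters, and 0 with a minimum of 500 UMIs. Pairs below −0.5 numbered 0 with that minimum, 0 in Xist cells and 1 within clusters. The pairs past 0.5 in size over all cells had fewer than 500 UMIs each, so that minimum left them all out. Those below −0.5 were not compared in Xist cells either, for want of cells or UMIs. Dsp was lower in 5 classes of 7 among Xist cells, from 9 of 10. The cause of the other shifts was not tested. For single ratios, Dsg4 in the Med-like cells was at −0.13 with stricter gates, and Dsg3 in the companion-like cells at −0.13 with gates on single cells. Depth limits Dsg4, Dsc1, and Dsc2 most, whose UMIs outside their leading classes are few.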

Other observations

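The 3319 (PADI4 WT) and 2839 (cKO-labelled) epithelial cells outside the gates entered no comparison of the classes. Their desmoglein UMIs were 45.2% and 42.8% Dsg2, 49.7% and 53.5% Dsg3, and 5.16% and 3.66% Dsg4, and their plakophilin UMIs were 38.4% and 32.4% Pkp1. Dsp was at 354 CPM (349 to 359) and 275 CPM (270 to 279) in these cells, and Dsc3 at 204 CPM (201 to 208) and 169 CPM (165 to 172). The 26 and 10 melanocyte-like cells held 24 and 23 UMIs of Dsc3 and 0 of Dsg4, Dsc1, and Dsc2. The 49 and 27 fibroblast-like cells had Dsp at 139 CPM (115 to 168) and 140 CPM (109 to 178) and Jup at 64.7 and 60.7 CPM, and their desmoglein UMIs were mostly Dsg2, 39 of 42 and 16 of 21.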
